A study of Mus musculus with 6 samples.

Results

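The genes described here are 9 globin, heme and iron genes of the mouse (Hba-a1, Hba-a2, Hbb-bt, Alas1, Fech, Blvrb, Tfrc, Fth1 and Ireb2), out of 18057 genes in the deposited table of estimated counts. They were taken by name, and they had been named with earlier results of the same comparison in view, so their levels, differences and calls are a description and support nothing on their own. RNA was sequenced from group 2 innate lymphoid cells (ILC2s), lymphocytes that secrete type 2 cytokines, sorted from the lungs of mice given 3 intranasal injections of 1 µg IL-33. In both groups the sorted cells spent a further 24 h in culture, where IL-2 and IL-7 were each at 10 ng/mL. The control group (3 libraries) has the genotype label Il7rcre and is titled WT, and the Piezo1_KO group (3 libraries) has the label Il7rcrePiezo1flx, a Cre recombinase driven from the Il7r locus, which is active in lymphoid cells, with a floxed allele of the mechanically gated cation channel Piezo1. The labels give neither the age or strain of the mice nor whether a library is 1 animal or a pool, so a p-value here weighs a difference against the spread among 3 libraries a group, and that spread may be technical.

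Globins are the oxygen-carrying proteins of red cells, in which alpha and beta chains pair and each chain holds a heme. Heme is built in a chain of steps that starts with 5-aminolevulinate synthase (Alas1 outside the red cell lineage) and ends with ferrochelatase (Fech), which puts iron into protoporphyrin, and biliverdin reductases act after heme is opened. Iron enters dividing lymphocytes through the transferrin receptor (Tfrc) and is stored in ferritin (Fth1 and Ftl1), and iron regulatory proteins such as the product of Ireb2 bind stem-loops in these mRNAs, which protects the Tfrc mRNA and blocks translation of ferritin mRNA.

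The 2 alpha globin genes are nearly the same gene in sequence, which sets what a count for either can mean. Hba-a1 lies at chr11:32283511-32284465 and Hba-a2 at chr11:32296489-32297298, both on the plus strand in mm10, with 12978 bases between their starts (GENCODE M21). Their coding sequences of 429 bases differ at 1 position, C381T, counted from the A of the start codon with the base of Hba-a1 first. It falls in codon 127, and the encoded proteins of 142 residues differ at 0 positions. The 61 bases around that position are shown because they hold the only coding letter that tells a read of one gene from a read of the other, which stands in capitals.
Hba-a1 (chr11:32284313-32284373, plus strand): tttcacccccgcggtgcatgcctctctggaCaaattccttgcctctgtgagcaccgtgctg
Hba-a2 (chr11:32297130-32297190, plus strand): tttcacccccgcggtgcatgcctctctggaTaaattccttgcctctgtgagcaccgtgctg

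Outside the coding part the annotated transcripts differ mainly in where they begin and end. The Hba-a1 transcript has 699 bases with 196 before the coding start, and the Hba-a2 transcript has 554 bases with 35 before it, and those 35 bases are the same in both. Of the 480 windows of 75 bases in the Hba-a2 transcript, 389 also occur in the Hba-a1 transcript (81.0%), against 389 of 625 windows of the Hba-a1 transcript (62.2%). No window of 25 bases of the Hba-a1 transcript occurs in that of Hbb-bt (0 shared). The division of reads between the alpha genes is therefore uncertain, and their sum is given beside each gene.

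The start regions of the alpha genes are the same as well. In the RefSeq windows of 300 bases around each start (250 before, 50 after, GRCm38.p6), the 297 bases that can be laid over each other hold 0 differences. The 247 bases before the GENCODE start of Hba-a2 are shown because their letters are common to both alpha genes. The GENCODE transcript of Hba-a1 has 196 bases before its coding start, against 35 for Hba-a2. It therefore begins inside the matching stretch, and the letters marked TATAA and CCAAT lie within that transcript.
Hba-a2 (chr11:32296242-32296488, plus strand): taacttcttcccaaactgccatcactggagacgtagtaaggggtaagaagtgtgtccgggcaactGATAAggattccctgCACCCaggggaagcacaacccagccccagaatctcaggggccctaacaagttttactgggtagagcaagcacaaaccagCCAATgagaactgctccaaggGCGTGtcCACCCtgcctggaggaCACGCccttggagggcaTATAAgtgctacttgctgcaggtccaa
Capitals mark matches, on either strand, to 5 short motifs, given here with the share of all 32851 RefSeq windows of 300 bases that hold each. The letters CCAAT occur in 37.4% of windows, the letters CACCC in 57.5%, the letters TATAA in 24.9%, the letters GATAA in 25.4% and the letters GCGTG (read as CACGC on the other strand) in 32.4%. The letters ACGTG, searched in the same way, are in 19.6% of windows and not in those of the alpha genes. The window of Hbb-bt holds the first 4 of these motifs and neither of the last pair. These matches describe letters only.

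Before the members, the libraries were checked as a whole. Their totals lay between 13059046 and 33459904 estimated counts, with the shallowest and the deepest both in the control group (replicates 3 and 2). Piezo1, the targeted gene, was at 247, 278 and 160 CPM (counts relative to the library's total, TMM-scaled) in control replicates 1, 2 and 3 and at 150, 109 and 122 CPM in those of Piezo1_KO. Its log2 fold change was −0.85 ± 0.21 (SE), which did not pass an adjusted p of 0.05 (0.112 by the quasi-likelihood test of edgeR, adjusted by Benjamini-Hochberg across the whole table). It passed with DESeq2 (adjusted p = 0.00193), with limma-voom (0.0157) and, in edgeR, without control replicate 3 (0.0163). A count over the whole gene may include transcript outside the deleted part, which the labels do not name. All 14 listed ILC2 markers were above 1 CPM in each library (Il17rb rose and Il7r and Icos fell among them), and the lineage factor Gata3 was at 703 to 1035 CPM over the 6 libraries and the IL-33 receptor gene Il1rl1 at 736 to 995 CPM.

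Alpha globin RNA was present in every library and rose in Piezo1_KO. Hba-a1 was at 4.38, 3.52 and 4.87 CPM in control replicates 1, 2 and 3, from 87, 118 and 65 counts. It was at 23.8, 28.2 and 23.6 CPM in Piezo1_KO replicates 1, 2 and 3, from 564, 815 and 552 counts. The lowest Piezo1_KO library stood well above the highest control library. The means were 4.26 ± 0.68 CPM in control against 25.2 ± 2.57 CPM in Piezo1_KO (SD, n = 3), a 5.98-fold difference with a log2 fold change of 2.58 ± 0.17 (SE, adjusted p = 3.83e-04, edgeR). In bulk RNA, more cells with alpha globin RNA and more of it per cell cannot be told apart.

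Hba-a2 had 0 counts in each of the 3 control libraries and 66.3, 90.0 and 58.8 estimated counts in Piezo1_KO replicates 1, 2 and 3. That is 2.79, 3.11 and 2.52 CPM in Piezo1_KO, or 2.81 ± 0.30 CPM (SD, n = 3). Against a floor of 3 counts over the control group, the counts given to Hba-a2 were at least 62.9-fold higher. That limit covers counting error only, not the uncertain division of reads shared with Hba-a1. The gene entered the test only through the group where it is high, and it was called (adjusted p = 0.00531, edgeR), but not without Piezo1_KO replicate 1 (adjusted p = 0.0552) or replicate 2 (0.0549).

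Summed, the alpha genes made 87, 118 and 65 counts in control and 630, 905 and 611 counts in Piezo1_KO. The sums are whole to within 0.0011 of a count, although the counts of the single genes in Piezo1_KO are not. The share given to Hba-a2 was alike in the Piezo1_KO libraries, at 10.5%, 9.94% and 9.63% of the alpha counts, with exact 95% binomial intervals of 8.20% to 13.1%, 8.07% to 12.1% and 7.43% to 12.3%. In control it was 0 of 87, 0 of 118 and 0 of 65 counts, which allows shares of up to 3.45%, 2.54% and 4.62% at a floor of 3 counts a library, or up to 4.15%, 3.08% and 5.52% by the same exact intervals. Intervals and limits cover counting error only, and they take each read as assigned to its gene with certainty. With most windows shared, a changed share and a different division of shared reads cannot be told apart. The intervals of the groups did not overlap, while the difference of the sum (log2 fold change 2.73 ± 0.17, adjusted p = 3.00e-04, edgeR) was close to that of Hba-a1 alone.

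**Figure D1:**
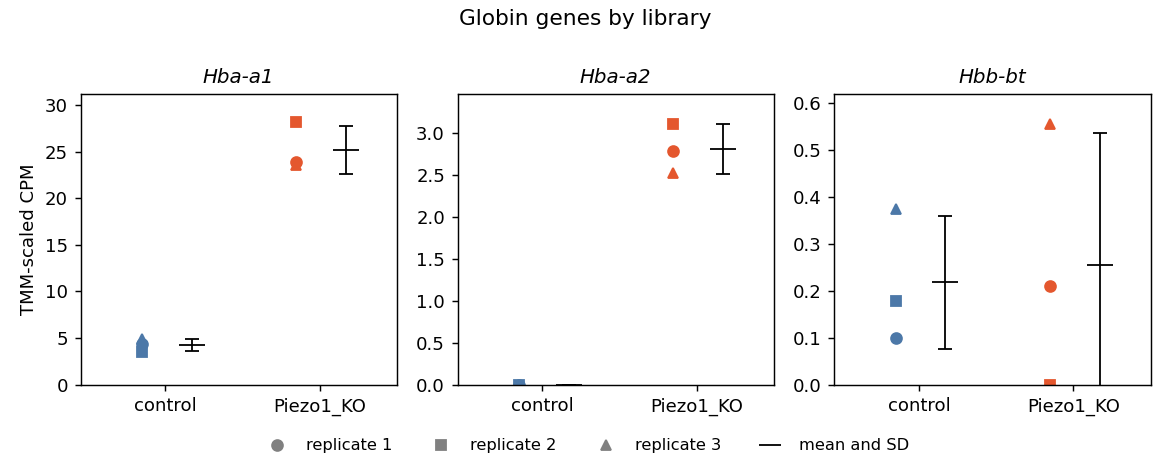
TMM-scaled CPM (vertical axes, linear, from 0) of Hba-a1, Hba-a2 and Hbb-bt in each library, with 3 control libraries in blue and 3 Piezo1_KO libraries in red, and the mean with its SD in black (the SD bar of Hbb-bt is cut at 0). All 3 Piezo1_KO libraries stand above the control libraries for both alpha genes, and the groups overlap for Hbb-bt.

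The groups overlapped for Hbb-bt, the 1 beta globin gene analysed here, and Hbb-bs, the other adult beta globin gene, was not analysed here. Hbb-bt (chr7:103812524-103813996, minus strand) had 2.38, 6 and 4.99 estimated counts in control and 5, 0 and 13 in Piezo1_KO. Both the lowest and the highest library belonged to Piezo1_KO. It was too low to be tested, and its pooled counts of 13 in control and 18 in Piezo1_KO give a ratio of 1.21 with a 95% counting interval of 0.563 to 2.70. The summed alpha counts exceeded those of Hbb-bt alone 36.6-, 19.7- and 13.01-fold in control replicates 1, 2 and 3 and 126- and 47.0-fold in Piezo1_KO replicates 1 and 3, with no Hbb-bt count in replicate 2. Neuroglobin (Ngb), the other globin gene of the fixed list that was measured, was at 3 to 15 counts a library and was not tested.

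Erythroid and platelet markers were near the detection limit in both groups. Of 26 listed, 10 are analysed here, none reached 1 CPM in any library, and the highest count of any in a library was 19. Their summed level was 0.974 to 2.24 CPM in control and 1.96 to 2.28 CPM in Piezo1_KO, so the ranges of the groups overlapped. That sum joins erythroid and platelet genes, so it does not stand for the erythroid genes alone. Control replicate 2, with the highest control sum, held 19 counts of Pf4 and 12 of Itga2b, both platelet genes. It also held 12 counts of Hemgn and 8 of Gata1, both erythroid. Gene by gene, the groups overlapped for each of the 10 but Rhd. Klf1, the erythroid transcription factor, had 0 to 3 counts a library, and Gata1 had 0 counts in 3 libraries (control replicate 3 and Piezo1_KO replicates 2 and 3). Rhd, which encodes a red cell membrane protein, was the 1 marker that could be tested, with 6, 3 and 4 counts in control and 18, 19 and 19 in Piezo1_KO, which did not overlap but did not pass (log2 fold change 1.78 ± 0.59, adjusted p = 0.238, edgeR). Markers of macrophages and monocytes, which take up old red cells, summed to 9.71 to 21.5 CPM in control and 6.64 to 13.4 CPM in Piezo1_KO. Markers of granulocytes and mast cells summed to 175 to 245 CPM in control and 127 to 139 CPM in Piezo1_KO, nearly all of it Kit, which ILC2s also express, and the mast cell chymase Cma1 fell (log2 fold change −2.03 ± 0.35, adjusted p = 0.0312, edgeR). Markers of epithelial, endothelial and stromal cells summed to 52.5 to 60.8 CPM in control and 88.3 to 93.3 CPM in Piezo1_KO, and the pericyte gene Pdgfrb and the endothelial gene Pecam1, also found on lymphocytes, rose among them. Their part in the alpha globin difference was not tested.

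**Figure D2:**
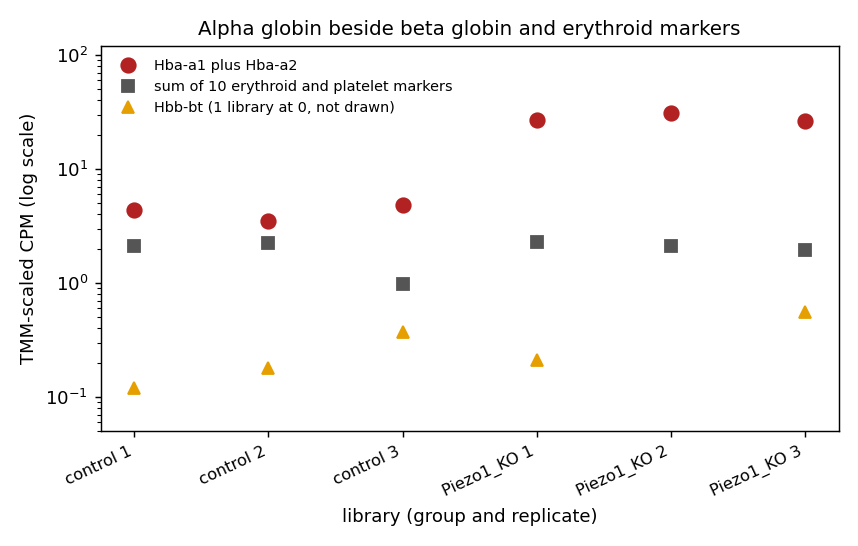
TMM-scaled CPM on a log axis for each of the 6 libraries (horizontal axis), showing the sum of Hba-a1 and Hba-a2, the sum of 10 erythroid and platelet markers, and Hbb-bt, whose 1 library at 0 is not drawn. The alpha sum separates the groups, from 3.52 to 4.87 CPM in control and from 26.1 to 31.3 CPM in Piezo1_KO, and the marker sum lies between 0.974 and 2.28 CPM in all 6.

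No gene around the alpha globin locus was called. Within 250 kb on either side, 8 protein-coding genes were tested and 0 were called by edgeR, DESeq2 or limma-voom, and 1 (Il9r, lower) had an unadjusted p under 0.05 in edgeR. Their log2 fold changes ran from −0.50 to 0.33. Over the whole table, 1.51% of genes tested were called in either direction. Nprl3, whose introns hold the distal enhancers of the alpha globin genes, was at 34.6 ± 1.38 CPM in control against 37.8 ± 0.84 CPM in Piezo1_KO (SD, n = 3), and its log2 fold change was 0.13 ± 0.09 (SE, adjusted p = 0.626, edgeR). Il9r, the IL-9 receptor gene farther out on the same side, stood at −0.27 ± 0.12 on the log2 scale (adjusted p = 0.374). These neighbours were chosen by position after the values had been seen.

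The genes whose levels followed Hba-a1 most closely over the 6 libraries, among 8651 ranked, were Egln3 (Pearson r = 0.998), Gimap4 (0.995), Tec (0.992), Ldoc1 (0.992) and Trib2 (0.991). All 5 were also called higher in Piezo1_KO, by log2 fold changes of 1.68, 0.58, 0.82, 1.78 and 1.98. The correlations rest on 6 points that share libraries and the group difference. Egln3, a prolyl hydroxylase that acts on hypoxia-inducible factors, was at 20.2 CPM in control against 64.3 CPM in Piezo1_KO.

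Of the 9 members, 8 were tested and 2 were called, Hba-a1 and Hba-a2, both higher and none lower, where 1.00% of all genes tested were called higher and 0.509% lower. At an unadjusted p under 0.05 in edgeR, 4 members were higher (Tfrc and Fth1 beside the alpha genes) and 0 lower. The share of all genes under that unadjusted p was not counted. Among the members, DESeq2 and limma-voom called the 2 alpha genes alone. Over all genes DESeq2 called 593 of 13600 and limma-voom 439 of 14149. The rule used this contrast, so nothing is read from these counts. For 3 of the 8 (the alpha genes and Tfrc) the groups did not overlap, each time with Piezo1_KO higher, as for 10.1% of all genes tested (20.6% in either direction). The median log2 fold change was 0.27 over the 8 and 0.018 over all genes tested.

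The members of heme synthesis and breakdown had overlapping groups. Alas1 (chr9:106233455-106248654, minus strand), the rate-limiting enzyme of heme synthesis outside the red cell lineage, was at 36.3, 39.9 and 31.6 CPM in control against 35.2, 42.8 and 38.0 CPM in Piezo1_KO. Its log2 fold change was 0.10 ± 0.13 (SE, adjusted p = 0.788, edgeR), from 0.02 to 0.17 when 1 library was left out. Fech, on chromosome 18, was at 39.6, 52.2 and 42.3 CPM in control against 41.4, 42.2 and 44.3 CPM in Piezo1_KO. The control library at 52.2 CPM was the highest of the 6, and the log2 fold change of Fech was −0.07 ± 0.12 (adjusted p = 0.859). Blvrb (chr7:27447978-27466144, plus strand), a biliverdin and flavin reductase abundant in red cells, was at 5.18, 4.96 and 7.35 CPM in control against 3.55, 6.15 and 4.40 CPM in Piezo1_KO. Its range within each group was wider than the difference between the means (log2 fold change −0.30 ± 0.28, adjusted p = 0.713, from −0.55 to −0.11 when 1 library was left out), and its 84 to 178 counts a library made it the least deeply counted of these genes.

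Fth1 and Tfrc were the most abundant members. Tfrc (chr16:32608920-32632794, plus strand) was at 592, 516 and 403 CPM in control against 680, 611 and 704 CPM in Piezo1_KO. Each Piezo1_KO library was above each control library, though the closest pair, at 592 and 611 CPM, lay nearer together than the control libraries did to each other. The means were 504 ± 95.2 and 665 ± 48.4 CPM (SD, n = 3), which is a log2 fold change of 0.40 ± 0.14 that did not pass (adjusted p = 0.269, edgeR), and it was 0.26 without control replicate 3, the lowest library. The genes whose levels were most like those of Tfrc over the 6 libraries were Lman1 (Pearson r = 0.995), Rbm6 (0.992), Itga4 (0.992), Tgoln1 (0.988) and Zfp281 (0.987), and none of these 5 was called.

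Fth1 (chr19:9980598-9985098, plus strand), the ferritin heavy chain that oxidises iron for storage, was at 909, 658 and 1080 CPM in control against 1068, 1287 and 1144 CPM in Piezo1_KO. Control replicate 3 stood just above the lowest Piezo1_KO library, so the groups overlapped. The log2 fold change was 0.40 ± 0.17 (adjusted p = 0.366, edgeR), and it was 0.21 without control replicate 2, the lowest library. Ireb2 (chr9:54863789-54912530, plus strand), the RNA-binding iron sensor, was at 53.7, 51.8 and 39.8 CPM in control against 54.6, 47.5 and 59.2 CPM in Piezo1_KO. Its log2 fold change was 0.15 ± 0.14 (adjusted p = 0.725), and it was 0.02 without control replicate 3, the lowest of the 6 libraries for both Ireb2 and Tfrc.

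**Figure D3:**
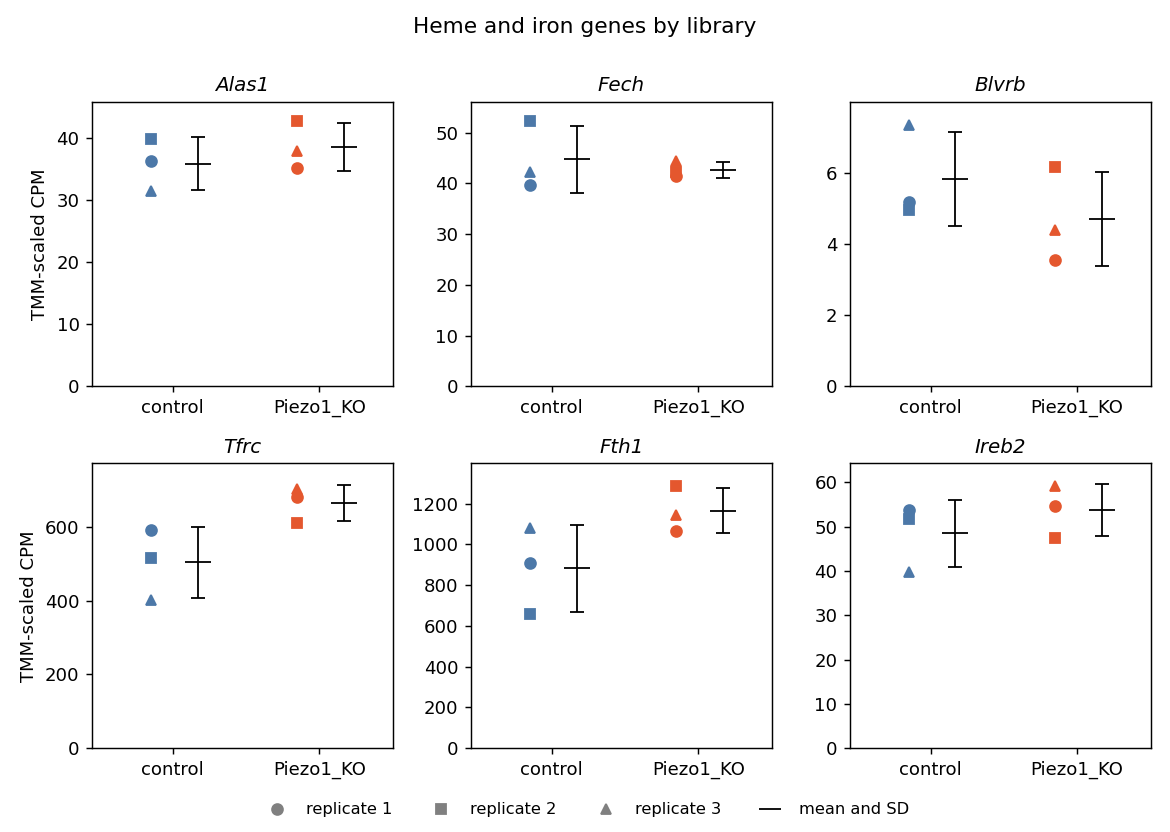
TMM-scaled CPM (vertical axes, linear, from 0) of Alas1, Fech, Blvrb, Tfrc, Fth1 and Ireb2 in each library, with control in blue, Piezo1_KO in red, a marker shape for each replicate number and the mean with its SD in black. The groups overlap in every panel except that of Tfrc, where the highest control library is at 592 CPM and the lowest Piezo1_KO library at 611 CPM.

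Per kilobase of the longest coding transcript, the order of the control levels was Fth1 (591 ± 142 CPM per kb, SD, n = 3), Tfrc (103 ± 19.5), Alas1 (10.6 ± 1.24), Ireb2 (8.40 ± 1.31), Fech (6.81 ± 1.01), Hba-a1 (6.09 ± 0.98), Blvrb (5.67 ± 1.28), Hbb-bt (0.310 ± 0.20) and Hba-a2 at 0. The ranges over control libraries did not touch between Fth1 and Tfrc, between Tfrc and Alas1, between Blvrb and Hbb-bt and between Hbb-bt and Hba-a2. From Alas1 down to Blvrb each range overlapped the next. In Piezo1_KO, Hba-a1 was at 36.0 ± 3.68 CPM per kb, above the level of Alas1 there (11.4 ± 1.13), and Hba-a2 at 5.07 ± 0.53. These values are levels, not differences, and they depend on which transcript length is taken.

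Iron acts on Tfrc and ferritin mRNA through iron-responsive elements, stem-loops with a bulged C, a paired stem and the loop CAGTGN. The sites are shown for Tfrc and Fth1, known carriers of the element, with the ferritin light chain Ftl1 and the iron exporter ferroportin (Slc40a1) beside them. The 6 bases of the loop are in capitals, and each site was found as C, 5 bases, the loop with no G at its end and 5 bases that pair back.
Tfrc site 1 (chr16:32631219-32631248, plus strand, 3′ UTR): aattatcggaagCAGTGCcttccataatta
Tfrc site 2 (chr16:32631598-32631627, plus strand, 3′ UTR): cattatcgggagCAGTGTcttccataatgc
Tfrc site 3 (chr16:32631663-32631692, plus strand, 3′ UTR): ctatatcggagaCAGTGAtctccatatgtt
Tfrc site 4 (chr16:32631710-32631739, plus strand, 3′ UTR): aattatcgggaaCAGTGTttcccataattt
Fth1 (chr19:9982732-9982761, plus strand, 5′ UTR): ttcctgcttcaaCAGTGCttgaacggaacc
Ftl1 (chr7:45459778-45459807, minus strand, 5′ UTR): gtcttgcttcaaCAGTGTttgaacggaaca
Slc40a1 (chr1:45925464-45925493, minus strand, 5′ UTR): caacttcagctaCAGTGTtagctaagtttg
Of the 9 members, 2 held the pattern in a coding transcript (Tfrc and Fth1), against 222 of 21877 annotated coding genes (1.01%). The members were taken by name as iron genes, so nothing is read from that count. Of the 141 genes with the pattern among 11364 tested coding genes, 2 were called, Iigp1 and Serpina3g, both lower. Over all 14149 genes tested, 1.51% were called. A match anywhere in a coding transcript was counted, and its place was recorded only for the sites shown. The pattern allows no unpaired base in those 5, so genes with elements of another form are not among the 141. Among the listed pathway genes the pattern was also found in Bola3, which acts in iron-sulfur cluster assembly (log2 fold change −0.02 ± 0.20, adjusted p = 0.983, edgeR). Ftl1 was at 3672 ± 486 CPM in control against 3448 ± 193 CPM in Piezo1_KO (SD, n = 3). Its log2 fold change was −0.09 ± 0.11 (SE, adjusted p = 0.777, edgeR), so the 2 ferritin chains had estimates of opposite sign and neither passed. Slc40a1 had 3, 13 and 2 counts in control and 0, 1 and 0 in Piezo1_KO and was not tested.

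Most other genes of the same pathways, from lists drawn up from textbook knowledge, did not pass. Of 109 genes listed beside the members, 77 were tested, 3 rose, 1 fell and 73 did not pass, where 1.51% of all genes tested were called. Their median log2 fold change was 0.020, with 41 of 77 positive, beside 0.018 over all genes tested.

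The pathway genes that rose belonged to iron handling and iron sensing. Epas1, which encodes the oxygen- and iron-sensitive transcription factor HIF-2α, was at 24.2, 29.4 and 21.5 CPM in control against 59.1, 58.1 and 57.5 CPM in Piezo1_KO. The 3 Piezo1_KO libraries were nearly equal (SD 0.81 CPM) and all above the control libraries, and the 2.31-fold difference (log2 1.21 ± 0.13, adjusted p = 0.00473, edgeR) had an adjusted p of 0.0594 without control replicate 1. Trf, which encodes the iron carrier transferrin, rose from 2.76 ± 0.49 to 7.27 ± 0.59 CPM (SD, n = 3, log2 1.38 ± 0.22, adjusted p = 0.0266). Slc11a1, a metal transporter of endosome and lysosome membranes, rose from 9.13 ± 0.70 to 15.5 ± 0.45 CPM (log2 0.76 ± 0.14, adjusted p = 0.0369). The calls of Trf and Slc11a1 were lost without control replicate 1 (adjusted p = 0.143 and 0.169) and without Piezo1_KO replicate 1 (0.136 and 0.148), 2 (0.135 and 0.216) or 3 (0.136 and 0.181), and that of Slc11a1 also without control replicate 3 (0.0565) and with no filter on low counts (0.0535). Beside the members, the other 14 tested genes of iron uptake, storage and export and the other 7 of iron sensing did not pass. Aco1, the aconitase that turns into the other iron regulatory protein, was at 51.4 ± 1.98 CPM in control against 53.8 ± 2.47 CPM in Piezo1_KO (log2 0.07 ± 0.09, adjusted p = 0.806).

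Among 15 tested genes of heme transport, sensing and breakdown, 1 fell and 14 did not pass. Nr1d1, which encodes the heme-binding clock repressor REV-ERBα, was at 7.95, 7.23 and 7.35 CPM in control against 3.55, 3.18 and 2.52 CPM in Piezo1_KO, 2.43-fold lower with no overlap. Its log2 fold change was −1.28 ± 0.22 (adjusted p = 0.0297, edgeR), and the call was lost without control replicate 1 (adjusted p = 0.154) and without Piezo1_KO replicate 1 (0.105), 2 (0.175) or 3 (0.141). Nr1d1 overlaps Thra on the opposite strand, and the sources used here do not give whether counting used strand, so reads of the pair cannot be told apart. Hmox1, the inducible heme oxygenase, was at 50.2, 64.5 and 56.3 CPM in control against 39.1, 41.8 and 38.6 CPM in Piezo1_KO, which did not overlap, but its log2 fold change of −0.52 ± 0.11 did not pass in edgeR (adjusted p = 0.0847), while it did in DESeq2 (0.00586). Blvra, the main biliverdin reductase, had 0.05 ± 0.14 (adjusted p = 0.919).

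Neither heme synthesis nor iron-sulfur cluster assembly held a gene called by edgeR. Of the 11 tested heme synthesis genes other than Alas1 and Fech, 0 passed and log2 fold changes ran from −0.56 to 0.26, with 3 at an unadjusted p under 0.05 (Cpox, Slc25a39 and Uros, all lower), 1 called by DESeq2 (Cpox) and 0 by limma-voom. Cpox, coproporphyrinogen oxidase, had the smallest p, at 143, 217 and 147 CPM in control against 117, 110 and 115 CPM in Piezo1_KO (−0.56 ± 0.16, adjusted p = 0.168 in edgeR and 0.0230 in DESeq2). The log2 fold change of Cpox was −0.36 without control replicate 2, which stood apart there and was also the highest library for Fech. Of 27 tested genes of iron-sulfur cluster assembly, 0 passed in edgeR, DESeq2 or limma-voom and log2 fold changes ran from −0.35 to 0.33. Ndor1, a reductase of the cytosolic assembly pathway, alone had an unadjusted p under 0.05 (−0.35 ± 0.13, adjusted p = 0.277).

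**Figure D4:**
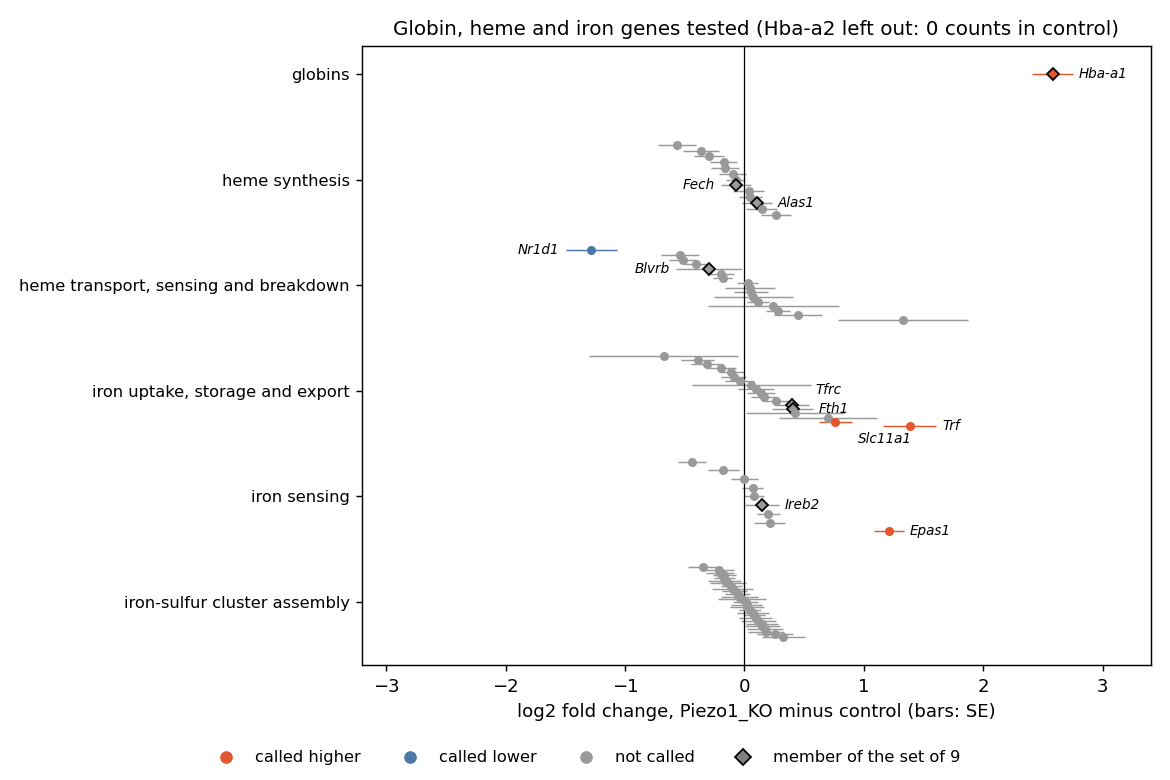
Log2 fold change of Piezo1_KO minus control (horizontal axis, bars are SE) for each tested gene of the 6 lists, with members as diamonds and genes called at an adjusted p of 0.05 in red (higher) or blue (lower). Hba-a2 is left out because control holds 0 counts. Hba-a1 stands at 2.58, Trf, Epas1 and Slc11a1 at 1.38, 1.21 and 0.76 and Nr1d1 at −1.28, while the other points are grey.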

How the data were processed

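The deposited table holds the authors' estimated counts, which can be fractions and carry no scaling for library size. Reads were placed on mm10, per the submitters' processing notes; which aligner, counter and annotation were used, and whether strand was, the sources used here do not say. Table rows were tied to samples through the description label, and titles gave groups and replicate numbers. Estimated counts were rounded, reduced with filterByExpr to 14149 of 18057 genes and TMM-normalised. The test was edgeR 4.0.16 (R 4.3.3), glmQLFit then glmQLFTest, two-sided, with no covariates; p-values were adjusted by Benjamini-Hochberg across every gene in the fit, with 0.05 as the threshold. A standard error is the absolute log2 fold change over the square root of F. Where genes under an unadjusted p of 0.05 are given, the share of all genes under it was not counted. The fits were tested on simulated data, where DESeq2 made more false calls than edgeR. Those data used the spread of each gene as edgeR had estimated it, so they do not rank the tools on the real counts. Replicates differed by more than sampling noise in every pair (chi-square per gene of 10.8 to 60.7).

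The members, gene lists and alternatives were chosen with earlier results of these data known. Named genes are the 9 members, Piezo1, each other pathway gene past the threshold or, in a list with none, the one with the smallest p, some fixed genes (Hmox1, Ftl1, Slc40a1, Aco1, Blvra) and the 5 genes most correlated with Hba-a1 and with Tfrc, ranked where mean log2 CPM reached 3, predicted genes left out. Other genes named were chosen after their values were seen. Positions and transcripts are from GENCODE M21 (GRCm38, which is mm10), and start windows from RefSeq (8 of 9 members matched). Alternatives were RLE size factors, no filter or a stricter one (1 CPM in all libraries of a group), DESeq2 1.42.0, limma-voom (limma 3.58.1) with sample quality weights, a replicate block, each library left out in turn, and alpha globin counts summed.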

Additional observations from a re-analysis of the deposited data

How the results depend on the processing

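The rise of Hba-a1 passed in all 12 alternatives for that gene, with log2 fold changes of 2.43 to 2.68 and adjusted p from 1.30e-32 to 0.0100, and the summed alpha genes gave 2.73. The count of all genes called moved from 214 to 593 with DESeq2, 439 with limma-voom and 33 to 297 when 1 library was left out (34 without control replicate 1, and 35, 33 and 53 without Piezo1_KO replicates 1, 2 and 3). The members called numbered 1 to 2 when 1 library was left out, and the other pathway genes called moved from 4 (3 higher, 1 lower) to 7 with DESeq2 (3 higher, 4 lower) and 0 to 4 without 1 library (0 without control replicate 1, and 1 without each of the Piezo1_KO replicates). Same-numbered libraries did not deviate together (r = −0.023, −0.18 and −0.0075), so no pairing by replicate number was seen. Different-numbered pairs ran from −0.18 to 0.21, and such values cannot show how the samples were collected. With the replicate block, 52 genes, 1 member and 1 other pathway gene were called, and Hba-a2 had an adjusted p of 0.0710. Differences near 0 changed sign: Fech to 0.035 with limma-voom and −0.15 to 0.040 without 1 library, Ftl1 −0.16 to 0.020 and Blvra −0.089 to 0.15 without 1 library. The cause was not tested. At the counts of Hbb-bt, ratios from 0.563 to 2.70 lie within counting error.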
